A study of Mus musculus with 9 samples.

Results

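The kallikreins of the epidermis are a family of 10 secreted serine proteases, Klk5 to Klk14, whose transcripts were followed across 9 libraries of mouse ear epidermis. The members were the genes whose symbol was one of these 10, and all 10 were found among the 52550 genes of the count table. Total RNA came from epidermal sheets of the ears of wild type C57BL/6 mice (C57BL/6J in the methods) labelled as 8 weeks old. Control mice had Vaseline on the ears for 5 days and water by gavage for 10 days (VAS + H2O). Model mice had imiquimod cream, an agonist of Toll-like receptor 7 that causes psoriasis-like dermatitis, for the same 5 days, and water by gavage (IMQ + H2O). The third group had imiquimod and 200 μl of Xiao-Yin-Fang, a decoction of medicinal herbs, at 23.3 mg/g by gavage (IMQ + XYF), beginning 5 days ahead of the cream. Each group held 3 libraries. The paper's figure legends give n = 3 for each group. The methods state that sheets came from 2 mice without saying whether this is per library. The p-values therefore measure the spread between these libraries, which may in part be technical. Libraries held 30298275 to 64771160 counts. Levels are given in CPM (counts scaled to a common library size). The floor of detection, for counting error only, was taken as 3 counts, or 0.0463 to 0.0990 CPM of the unadjusted library total. All other CPM values were also scaled by the TMM factor of the library, so the 2 scales differ slightly.

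Kallikreins are made as inactive precursors by differentiating keratinocytes, stored in lamellar granules and released between the granular layer and the stratum corneum. There they activate one another in a cascade that begins with trypsin-like members such as KLK5, and they cut the corneodesmosome proteins that hold corneocytes together, so that the outermost cells are shed. The inhibitor LEKTI, encoded by Spink5, restrains them, and its loss in Netherton syndrome gives a thin barrier and inflamed skin. Several members also cut protease-activated receptors or precursors of antimicrobial peptides and cytokines. Markers of the labelled tissue were read, which shows keratinocytes but not that the sheets were free of other tissue. Markers of dermal fibroblasts, cartilage and muscle are given below. The summed CPM of Krt5, Krt14, Krt1 and Krt10, the keratins of basal and suprabasal keratinocytes, was 35931 to 59873 per library. In bulk tissue, more cells of a type and more RNA per cell cannot be told apart.

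The 10 genes lie in 1 cluster on chromosome 7 of GRCm38, between 43690418 and 43851181, a span of 160.8 kb. All are on the plus strand, in the order Klk14, Klk13, Klk12, Klk11, Klk10, Klk9, Klk8, Klk7, Klk6 and Klk5. The gap between neighbours was 0.819 kb between Klk9 and Klk8 and 41.4 kb between Klk13 and Klk12, the narrowest and the widest of the 9 gaps. The antisense gene 2310002F09Rik, on the minus strand, overlaps exons of Klk14 and Klk8. The labels call the libraries strand-specific, whereas the paper's methods name a TruSeq RNA kit (v2) and state no strand. The strand setting of the counting is not given in the sources used here. Reads of the antisense gene and of these 2 members may therefore not be told apart. Of 27 other genes of the kallikrein family in the table, 23 had no count in any library and the other 4 had at most 7 counts in a library.

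The upstream sequence of 4 members is shown, to set raised members beside one that did not pass the test. Klk6 and Klk13 had large differences between groups at well-counted levels, Klk10 held the only motif match of the family, and Klk5 is the neighbour of Klk6 that did not pass. Each is the stretch before a RefSeq start on GRCm38.p6, plus strand, 5′ to 3′, without bases that the annotation counts as exon. The Klk6 stretch is chr7:43824294-43824498 (205 bases), that of Klk13 is chr7:43712317-43712566 (250 bases), that of Klk10 is chr7:43780804-43781034 (231 bases) and that of Klk5 is chr7:43842068-43842268 (201 bases). The stretches of Klk6, Klk13 and Klk10 end where the annotated gene begins. That of Klk5 lies inside the annotated gene, which begins at 43841971, so it is not like for like with them. Klk6 has a further RefSeq start inside its gene, whose stretch (chr7:43825200-43825394) is not shown. Capitals mark the match to the STAT motif.
Klk6: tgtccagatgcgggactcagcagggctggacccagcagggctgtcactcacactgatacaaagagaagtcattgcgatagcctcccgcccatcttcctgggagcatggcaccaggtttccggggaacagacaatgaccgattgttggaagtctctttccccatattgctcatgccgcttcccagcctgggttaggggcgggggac
Klk13: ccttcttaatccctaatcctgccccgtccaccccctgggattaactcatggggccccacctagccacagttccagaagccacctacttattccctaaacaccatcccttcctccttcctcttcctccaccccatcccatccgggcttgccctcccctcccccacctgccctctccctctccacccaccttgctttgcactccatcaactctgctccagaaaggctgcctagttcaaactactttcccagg
Klk10: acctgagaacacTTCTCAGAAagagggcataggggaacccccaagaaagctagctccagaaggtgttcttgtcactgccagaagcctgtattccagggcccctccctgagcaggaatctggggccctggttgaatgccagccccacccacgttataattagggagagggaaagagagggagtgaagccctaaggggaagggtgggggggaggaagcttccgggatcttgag
Klk5: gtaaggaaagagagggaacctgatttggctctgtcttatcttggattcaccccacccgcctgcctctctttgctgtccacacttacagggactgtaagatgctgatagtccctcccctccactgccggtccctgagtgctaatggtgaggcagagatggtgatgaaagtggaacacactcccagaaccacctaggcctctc
In the 250 bases before the 12 RefSeq starts of the 10 genes, 7 motifs were searched on both strands. Those of factors active in inflamed epidermis were AP-1 (TGANTCA), STAT (TTCNNNGAA), C/EBP (TTGCNNCAA) and NF-kappaB (GGG and TTTCC with 2 open bases between), which stood in 6.75%, 7.02%, 1.74% and 1.41% of 32851 promoter windows of the same length. The others were that of the GRHL factors of epithelia (AACC joined to GGTT), the TATA box (TATAAA) and the E-box (CACGTG), which stood in 0.116%, 12.4% and 6.02%. Klk10 held 1 STAT match, TTCTCAGAA, 238 bases before its start, and the other 9 genes held none of the 7 motifs in this window. These letters are a description of the window and show no binding.

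Imiquimod raised 5 of the 10 kallikreins, and none was lower. Klk6, a trypsin-like protease, was 17.2-fold higher in IMQ + H2O than in VAS + H2O, Klk13 was 6.12-fold higher, Klk10 3.22-fold and Klk9 2.10-fold. Klk14, a trypsin-like protease of the desquamation cascade, rose from almost no reads. Klk7, the main chymotrypsin-like protease of the stratum corneum, together with Klk8 and Klk11, was higher by less than 2-fold, and Klk5 and Klk12 did not pass the test. Calls needed a log2 fold change of 1 or more in size and a p of 0.05 or less in edgeR's quasi-likelihood test, after Benjamini-Hochberg adjustment over all genes of the 6 libraries. By this rule 3.64% of the 18009 genes tested were called higher in IMQ + H2O, against 5 of 10 kallikreins. The kallikreins were chosen with earlier results of these data known. The adjusted p alone was passed by 8 kallikreins, all higher, against 12.7% of all genes higher, and 9 kallikreins had every IMQ + H2O library above every VAS + H2O library, against 23.4% of all genes. The median log2 fold change was 0.98 over the 10 members and -0.03 over all genes tested.

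**Figure D1:**
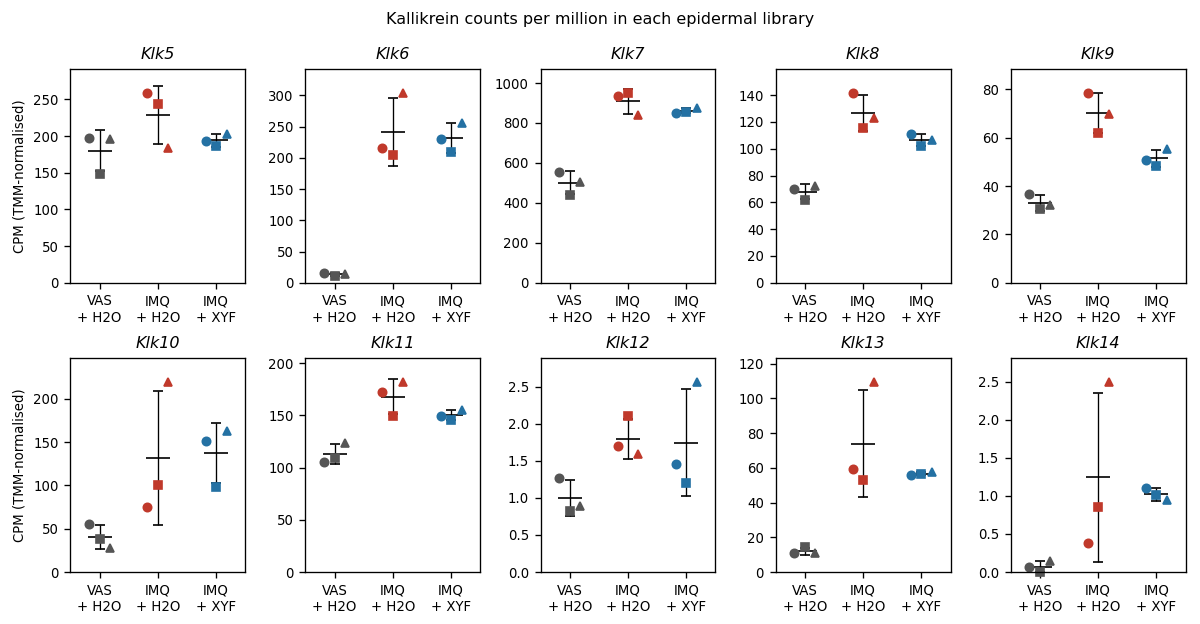
CPM (TMM-normalised counts, linear axis from 0, a different scale in each panel) of the 10 kallikreins in each library, with circles, squares and triangles for replicates 1, 2 and 3 and the bar for the mean ± SD of 3 libraries. Klk6 lies at 11.4 to 16.0 CPM in VAS + H2O and at 205 to 305 CPM with imiquimod, Klk5 overlaps between all groups, and IMQ + H2O replicate 3 stands above the other 2 for Klk10, Klk13 and Klk14.

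KLK5 and KLK7 are the proteases that cut corneodesmosomes, KLK5 as a trypsin-like enzyme that also activates the precursor of KLK7, and KLK14 adds trypsin-like activity. Klk7 had 555, 442 and 505 CPM in VAS + H2O replicates 1 to 3, 934, 952 and 838 in IMQ + H2O, and 850.1, 857 and 874 in IMQ + XYF. All 6 imiquimod libraries lay above all 3 control libraries. The log2 fold change of IMQ + H2O against VAS + H2O was 0.85 ± 0.11 (SE, n = 3 and 3, edgeR adjusted p = 0.00744), below the fold threshold of a call. Klk5 had 197, 148 and 196 CPM in VAS + H2O, 259, 244 and 184 in IMQ + H2O, and 193, 186 and 203 in IMQ + XYF. The 3 groups overlapped, since IMQ + H2O replicate 3 was lower than 2 of the control libraries. Its log2 fold change was 0.33 (95% interval -0.05 to 0.71, edgeR adjusted p = 0.18). The CPM ratio of Klk7 to Klk5 was 2.58 to 2.98 in VAS + H2O, 3.60 to 4.55 in IMQ + H2O and 4.30 to 4.60 in IMQ + XYF, with no overlap between control and imiquimod libraries.

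Klk14 was close to the floor of detection in the control epidermis. It had 3, 0 and 5 counts in VAS + H2O, 11, 33 and 108 counts in IMQ + H2O, and 70, 33 and 33 counts in IMQ + XYF. In CPM this was 0.0635, 0 and 0.143, then 0.380, 0.858 and 2.501, then 1.10, 1.02 and 0.941. Every imiquimod library lay above every control library, and the IMQ + H2O libraries spread over 6.58-fold among themselves. The fitted log2 fold change was 4.11 ± 1.0 (SE, n = 3 and 3, edgeR adjusted p = 0.0302), and its size rests on the 8 counts of the control group. The call was lost without VAS + H2O replicate 1 or 2 (adjusted p = 0.0965 and 0.0791, edgeR) and without IMQ + H2O replicate 2 or 3 (adjusted p = 0.0513 and 0.0834, edgeR). The overlapping antisense gene 2310002F09Rik had 4.91, 5.52 and 5.31 CPM in VAS + H2O, 5.87, 4.32 and 3.50 in IMQ + H2O, and 2.499, 2.53 and 3.08 in IMQ + XYF. Its IMQ + H2O libraries overlapped the controls and its IMQ + XYF libraries lay below them.

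Klk6, Klk13 and Klk8 encode trypsin-like proteases that are also known outside the skin, KLK6 as neurosin and KLK8 as neuropsin of the brain. Klk6 had 16.0, 11.4 and 14.3 CPM in VAS + H2O, 216, 205 and 305 in IMQ + H2O, and 231, 209 and 257 in IMQ + XYF. The lowest imiquimod library stood far above the highest control library. Its log2 fold change of 4.10 ± 0.21 (SE, n = 3 and 3, edgeR adjusted p = 0.00148) stayed between 3.90 and 4.24 when any 1 library was left out. Klk13 had 11.1, 14.2 and 10.7 CPM in VAS + H2O, 59.1, 53.2 and 109.6 in IMQ + H2O, and 55.7, 56.5 and 57.4 in IMQ + XYF. The imiquimod and control libraries were again fully apart, with IMQ + H2O replicate 3 highest. The log2 fold change of Klk13 was 2.61 ± 0.30 (SE, n = 3 and 3, edgeR adjusted p = 0.00643), and 2.22 without that library, still a call. Klk8 had 69.7, 61.6 and 72.3 CPM in VAS + H2O, 142, 115 and 123 in IMQ + H2O, and 111, 102 and 106 in IMQ + XYF. The 3 groups did not overlap, IMQ + XYF lying between the other 2. The log2 fold change of Klk8 in IMQ + H2O was 0.89 ± 0.10 (SE, n = 3 and 3, edgeR adjusted p = 0.00663), short of the fold threshold.

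Of the remaining members, Klk9 and Klk10 passed both thresholds. Klk9, one of the least studied kallikreins, had 36.7, 30.5 and 32.0 CPM in VAS + H2O, 78.6, 62.0 and 69.6 in IMQ + H2O, and 50.7, 48.4 and 55.2 in IMQ + XYF. As for Klk8, its adjacent gene, the IMQ + XYF libraries lay between the other groups without overlap. Its log2 fold change in IMQ + H2O was 1.07 ± 0.12 (SE, n = 3 and 3, edgeR adjusted p = 0.00579), just past the fold threshold. Klk10, first described as a gene of normal epithelial cells, had 54.9, 38.3 and 28.2 CPM in VAS + H2O, 75.3, 100.1 and 219.5 in IMQ + H2O, and 152, 98.3 and 162 in IMQ + XYF. Control and imiquimod libraries did not overlap, but the IMQ + H2O libraries differed by 2.92-fold among themselves. Its log2 fold change of 1.69 ± 0.43 (SE, n = 3 and 3, edgeR adjusted p = 0.0359) kept its direction and lost the call without VAS + H2O replicate 1, 2 or 3 (adjusted p = 0.0605, 0.107 and 0.0873, edgeR) and without IMQ + H2O replicate 2 or 3 (adjusted p = 0.0508 and 0.0583, edgeR). Without IMQ + H2O replicate 3 it was 1.10. The promoter window of Klk10 is the one with the STAT match shown above.

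Klk11 and Klk12 encode further trypsin-like members. Klk11 had 106, 109.6 and 124 CPM in VAS + H2O, 172, 149 and 182 in IMQ + H2O, and 149, 146 and 155 in IMQ + XYF. Its libraries were apart between control and imiquimod, with a log2 fold change of 0.56 ± 0.10 (SE, n = 3 and 3, edgeR adjusted p = 0.0155) for IMQ + H2O, under the fold threshold. Klk12 was scarce, with 60, 27 and 31 counts in VAS + H2O, 49, 81 and 69 in IMQ + H2O, and 93, 39 and 90 in IMQ + XYF. In CPM these were 1.27, 0.820 and 0.889, then 1.69, 2.11 and 1.60, then 1.46, 1.20 and 2.57. IMQ + H2O lay above the controls in every library, while IMQ + XYF overlapped both. The log2 fold change in IMQ + H2O was 0.84 (95% interval 0.19 to 1.48, edgeR adjusted p = 0.0689), short of both thresholds. Over the alternatives run its adjusted p was 0.0479 to 1, and it was below the threshold only with a minimum of 10 counts per library, where the log2 fold change stayed under 1.

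Members that were called lay among members that were not. Klk6 and Klk5, separated by 9.94 kb, had log2 fold changes of 4.10 and 0.33, whereas Klk9 and Klk8, separated by 0.819 kb, had 1.07 and 0.89. Between Klk13 and Klk10, which were called, lie Klk12 and Klk11, which were not.

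**Figure D2:**
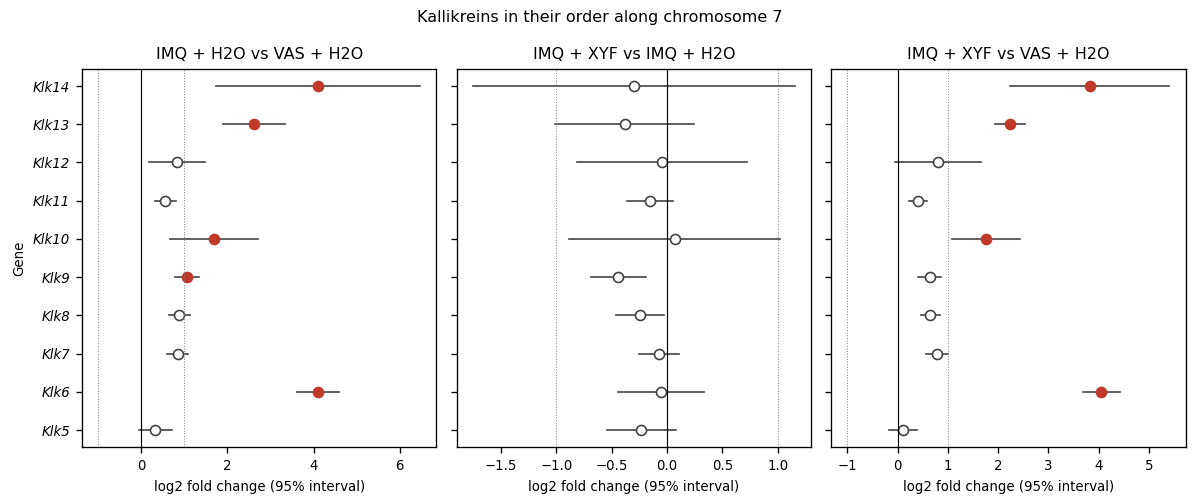
Log2 fold change of each kallikrein, from edgeR, in the 3 comparisons, with genes in their order along the cluster, lines for 95% intervals, filled points for called genes and dotted lines at log2 fold changes of -1 and 1. The horizontal scale differs between panels. Called members (5, 0 and 4 from left to right) stand beside members that were not called, and in IMQ + XYF against IMQ + H2O the intervals of 8 of 10 genes hold 0.

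A pair of libraries, IMQ + H2O replicate 3 and VAS + H2O replicate 2, stood apart in some markers. IMQ + H2O replicate 3 was the highest of its group for Klk6, Klk10, Klk11, Klk13 and Klk14. It was the lowest for Klk5, Klk7 and Klk12. The same library had 38.0 CPM of the neutrophil receptor gene Csf3r, against 0.173 and 0.858 in the other 2. Csf3r had 0 to 0.0911 CPM in VAS + H2O and 1.33 to 22.9 in IMQ + XYF, where replicate 1 was highest. The summed CPM of 6 neutrophil markers was 135 in IMQ + H2O replicate 3, against 49.4 and 51.7 in the other 2. That sum was 10.7 to 12.7 in VAS + H2O and 62.5 to 85.0 in IMQ + XYF, with Elane at 0 in all 9 libraries and most of the sum from Cxcr2. Cxcr2 alone had 10.6 to 12.6 CPM in VAS + H2O, 49.2 to 80.7 in IMQ + H2O and 54.3 to 60.9 in IMQ + XYF. The difference in the sum between control and imiquimod groups therefore rests largely on Cxcr2. Within IMQ + H2O, the structural genes of the granular layer Flg and Lor were lowest in replicate 3, at 159.6 and 273 CPM. The other 2 had 537 and 1015 for Flg and 636 and 833 for Lor. The summed CPM of 8 granular layer markers was also lowest in replicate 3, at 2304 against 4735 and 4162. Among these markers, Tgm3 was instead highest in replicate 3, at 432 CPM, and Tgm1 was not lowest there. VAS + H2O replicate 2 was the lowest control for 7 of 10 members, and its summed CPM of 7 dermal fibroblast markers was 646, against 73.0 and 104 in the other controls. In IMQ + XYF, replicate 2 was also lowest for 7 of 10 members, but its fibroblast sum of 157 lay between 73.5 and 210 in the others. Replicate 3 of that group was highest for 8 of 10 members. Cartilage markers also moved with the groups. In IMQ + H2O against VAS + H2O, 7 of 7 tested were called lower, against 727 of all 18009 genes tested. The summed CPM of the cartilage markers was 192 to 445 in VAS + H2O, 38.0 to 84.0 in IMQ + H2O and 131 to 196 in IMQ + XYF. Without IMQ + H2O replicate 3 the calls of Klk6, Klk9 and Klk13 stood, at log2 fold changes of 3.90, 1.07 and 2.22, and without VAS + H2O replicate 2 they stood at 3.99, 1.02 and 2.76. The part of these markers in the results was not otherwise tested.

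XYF did not move any kallikrein past the test. Between IMQ + XYF and IMQ + H2O, 0 of 10 members were called by edgeR or by DESeq2, where 0.0281% of 17793 genes were called by edgeR, and 2 of 10 members had an unadjusted p under 0.05, as did 5.43% of all genes tested. These were Klk9 and Klk8, whose IMQ + XYF libraries all lay below the IMQ + H2O libraries, as did 4.67% of all genes tested. Klk9 had a mean of 51.4 ± 3.44 CPM in IMQ + XYF and 70.1 ± 8.33 in IMQ + H2O (SD, n = 3 each), a log2 fold change of -0.44 (95% interval -0.69 to -0.19, edgeR adjusted p = 0.479). Klk8 had 106 ± 4.38 and 127 ± 13.7 CPM (SD, n = 3 each), a log2 fold change of -0.25 (95% interval -0.46 to -0.03, edgeR adjusted p = 0.817). The other 8 intervals held 0. They reached from -0.25 to 0.11 for Klk7, from -0.44 to 0.34 for Klk6, from -0.54 to 0.08 for Klk5 and from -0.36 to 0.05 for Klk11. They were wide for Klk13, from -1.01 to 0.24, for Klk12, from -0.81 to 0.73, for Klk10, from -0.89 to 1.02, and for Klk14, from -1.76 to 1.15. For 7 of the 10 members the interval excluded a 2-fold difference in either direction. The median log2 fold change was -0.19 over the members and 0.00058 over all genes.

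The spread among libraries differed between these groups. The coefficient of variation of Klk13 over 3 libraries was 41.9% in IMQ + H2O and 1.51% in IMQ + XYF. It was 89.2% and 7.83% for Klk14, and 58.6% and 25.0% for Klk10. Only Klk12 had a larger coefficient with XYF, 41.5% against 15.04%. For Klk10, Klk13 and Klk14, IMQ + H2O replicate 3 was the highest library of its group. Without that library, a choice made after seeing the data, the coefficient over the other 2 libraries of IMQ + H2O was 7.41% for Klk13, 54.6% for Klk14 and 20.02% for Klk10, and it exceeded that of IMQ + XYF for 5 of 10 members, against 9 of 10 with it. Coefficients over 2 and over 3 libraries are not like for like, and no share over all genes was computed. The difference in spread was not tested.

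Against the Vaseline controls, Klk6, Klk13, Klk10 and Klk14 rose in IMQ + XYF. These 4 of 10 members were called, where 4.58% of 17954 genes were called higher. The log2 fold changes were 4.06 ± 0.15 for Klk6 (SE, n = 3 and 3, edgeR adjusted p = 9.73e-05), 2.24 ± 0.12 for Klk13 (adjusted p = 0.00025), 1.76 ± 0.28 for Klk10 (adjusted p = 0.00565) and 3.82 ± 0.67 for Klk14 (adjusted p = 0.00743). All 4 calls stood when any 1 library was left out. Klk7, Klk8, Klk9 and Klk11 passed the adjusted p but not the fold threshold, with log2 fold changes of 0.78, 0.65, 0.64 and 0.41, so that 8 members passed the adjusted p alone, against 16.7% of all genes higher. The same 8 members had no overlap with the controls, against 25.1% of all genes higher. Klk12 had 0.80 (edgeR adjusted p = 0.14) and Klk5 0.11 (edgeR adjusted p = 0.529). Klk9 was called in IMQ + H2O and not in IMQ + XYF, and the difference between those 2 groups, given above, did not pass the test. The 3 comparisons share libraries in pairs, so their values are set side by side and are not independent.

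To compare levels between genes, CPM was divided by the length of each gene's merged exons in kb. In VAS + H2O the order from high to low was Klk7, Klk5, Klk11, Klk8, Klk10, Klk9, Klk6, Klk13, Klk12 and Klk14. Neighbours in this order did not overlap, except Klk10 and Klk9. Klk7 stood at 264 ± 29.9 CPM per kb, Klk5 at 135 ± 20.8, Klk11 at 77.0 ± 6.39 and Klk6 at 9.21 ± 1.53 (SD, n = 3 each). In IMQ + H2O Klk6 reached 159.8 ± 36.1 CPM per kb (SD, n = 3), the third of the order and overlapping Klk5 at 172 ± 29.8. Klk7 stayed first at 479 ± 32.4. In this group 5 of the 9 neighbouring pairs overlapped, namely Klk5 and Klk6, Klk11 and Klk10, Klk10 and Klk8, Klk9 and Klk13, and Klk12 and Klk14. In IMQ + XYF the order was Klk7, Klk6, Klk5, Klk11, Klk10, Klk8, Klk9, Klk13, Klk12 and Klk14, at 454 ± 6.54 CPM per kb for Klk7 and 153 ± 15.6 for Klk6 (SD, n = 3 each), and Klk6 again overlapped Klk5.

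The summed level of the 10 members per length was 522 to 639 CPM per kb in VAS + H2O, 1138 to 1243 in IMQ + H2O and 1027 to 1142 in IMQ + XYF. The ratio of group means was 2.02 for IMQ + H2O and 1.85 for IMQ + XYF against VAS + H2O. Klk6 made up 1.45% to 1.66% of the sum in VAS + H2O, 11.9% to 16.2% in IMQ + H2O and 13.5% to 14.9% in IMQ + XYF. Klk5 made up 21.3% to 24.4%, 11.1% to 16.5% and 13.3% to 13.6%. The share of Klk7 was 44.3% to 45.8% in the controls, 35.6% to 44.2% in IMQ + H2O and 40.4% to 44.1% in IMQ + XYF.

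**Figure D3:**
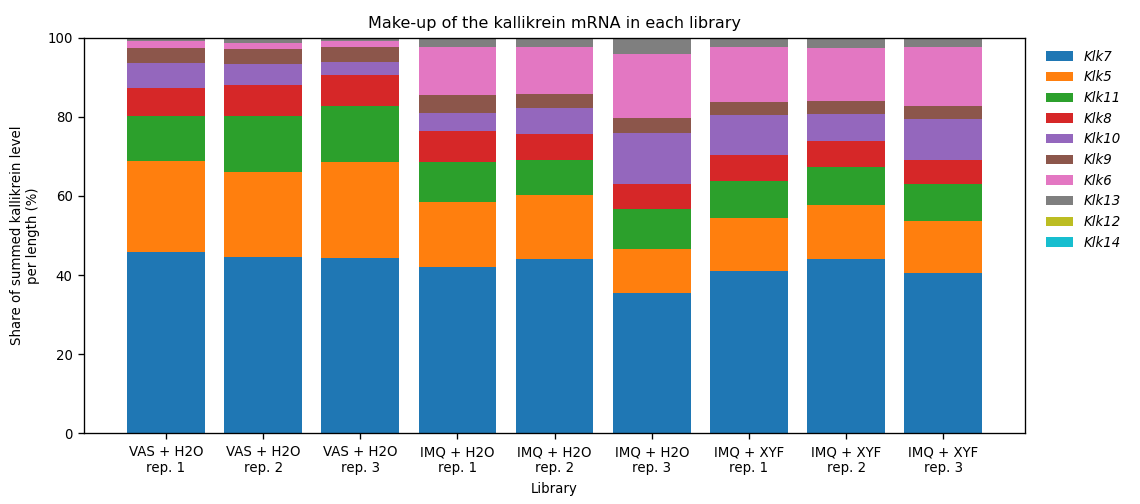
Share of each kallikrein in the summed level per length (CPM per kb of merged exons, in % of the 10 members) for the 9 libraries, 1 bar each. Klk7 is the largest part in every library, and the Klk6 part widens from 1.45% to 1.66% in VAS + H2O to 11.9% to 16.2% in IMQ + H2O while the Klk5 part narrows.

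Across the 9 libraries the members varied together to different degrees. The 9 libraries come from 3 groups, so the contrast of the groups enters every r. Over the 36 pairs without Klk5, Pearson's r of log2 CPM was 0.66 to 0.97 with a median of 0.89. Over the 9 pairs with Klk5 it was 0.19 to 0.68 with a median of 0.50. The pair with the highest r was Klk8 and Klk9, at 0.97, and the lowest was Klk5 and Klk10. Among 18482 other genes, those with the highest r to the mean log2 CPM of the 10 members over the 9 libraries were Rad23b, Fam98a, Pomp, Gtf2h1 and Ppp1ca, with r between 0.995 and 0.996. Rad23b, a carrier of ubiquitylated proteins, had 214 to 229 CPM in VAS + H2O, 326 to 364 in IMQ + H2O and 312 to 335 in IMQ + XYF.

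Of 18 genes of the kallikrein pathway chosen for their known role, with earlier results of these data known, 15 were tested in each comparison. They were 4 inhibitors, the activating proteases St14 (matriptase) and Prss8 (prostasin), 2 inhibitors of these, and 7 substrates or targets. In IMQ + H2O against VAS + H2O, 1 was called higher and 1 lower. Over all genes tested, 3.64% were called higher and 727 of 18009 lower. Slpi, a secreted inhibitor of serine proteases, had 3.60, 3.46 and 3.30 CPM in VAS + H2O, 88.8, 66.6 and 111 in IMQ + H2O, and 93.2, 60.8 and 96.5 in IMQ + XYF. All imiquimod libraries lay far above the controls, with a log2 fold change of 4.67 ± 0.21 in IMQ + H2O (SE, n = 3 and 3, edgeR adjusted p = 0.00148). A2m, a broad protease inhibitor of plasma, had 23.4, 26.6 and 13.9 CPM in VAS + H2O, 10.5, 5.49 and 3.87 in IMQ + H2O, and 13.3, 5.21 and 7.84 in IMQ + XYF. It was lower in IMQ + H2O (log2 fold change -1.71, edgeR adjusted p = 0.0294), as were the cartilage markers given above. Without VAS + H2O replicate 1 or 2, or IMQ + H2O replicate 2 or 3, only 1 pathway gene, Slpi, was called.

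Spink5, which encodes the main inhibitor of KLK5 and KLK7, had 738, 616 and 658 CPM in VAS + H2O, 801, 853 and 612 in IMQ + H2O, and 780.5, 796 and 753 in IMQ + XYF. IMQ + H2O overlapped the controls, with a log2 fold change of 0.16 (95% interval -0.17 to 0.49, edgeR adjusted p = 0.448). The CPM ratio of Klk7 to Spink5 was 0.718 to 0.768 in VAS + H2O, 1.12 to 1.37 in IMQ + H2O and 1.08 to 1.16 in IMQ + XYF, so all imiquimod libraries lay above the controls. The ratio of Klk5 to Spink5 was 0.241 to 0.298 in VAS + H2O, 0.286 to 0.324 in IMQ + H2O and 0.234 to 0.270 in IMQ + XYF. The controls overlapped both imiquimod groups, and every IMQ + XYF library lay below every IMQ + H2O library, a difference that was not tested. No share over other gene pairs was computed. The ratios of Klk6 to Klk5 and of Klk6 to Spink5 overlapped between the imiquimod groups. The ratio of Klk6 to Slpi, which overlapped too, was 3.31 to 4.46, 2.43 to 3.08 and 2.47 to 3.44 in the same order of groups.

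Among activating proteases, St14 had 112, 93.8 and 104 CPM in VAS + H2O, 130.0, 127 and 125 in IMQ + H2O, and 113, 123 and 126 in IMQ + XYF. It was above the controls in every imiquimod library and passed the adjusted p alone in IMQ + H2O (log2 fold change 0.29, edgeR adjusted p = 0.0444). Prss8 had 40.5, 32.6 and 34.5 CPM, then 31.0, 32.6 and 16.8, then 25.8, 35.9 and 22.9. Its log2 fold change in IMQ + H2O was -0.43 (edgeR adjusted p = 0.241). Spint1, an inhibitor of matriptase, and Dsc1, a corneodesmosomal cadherin that kallikreins cut, also passed the adjusted p alone in IMQ + H2O, at log2 fold changes of 0.42 and 0.50 (edgeR adjusted p = 0.0356 and 0.0453).

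**Figure D4:**
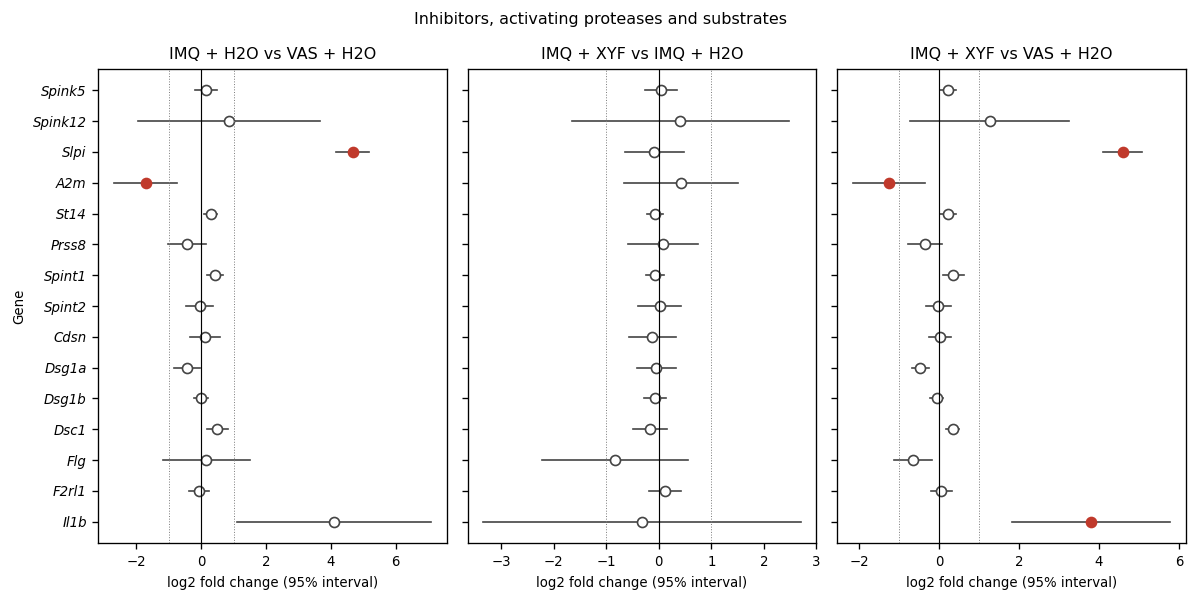
Log2 fold change of the 15 tested pathway genes, from edgeR, in the 3 comparisons, with lines for 95% intervals, filled points for called genes and dotted lines at -1 and 1. The horizontal scale differs between panels. Slpi stands at 4.67 and 4.59 against the controls, where Il1b also lies far above 0 and A2m below it. Most other genes lie near 0, and no gene is filled in IMQ + XYF against IMQ + H2O.

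No pathway gene was called between IMQ + XYF and IMQ + H2O by edgeR or DESeq2, and none had an unadjusted p under 0.05 in edgeR. Over all genes tested in edgeR, 0.0281% were called and 5.43% had such a p. In IMQ + XYF against VAS + H2O, Slpi (log2 fold change 4.59) and Il1b, which encodes a cytokine precursor that kallikreins can cut (3.79, edgeR adjusted p = 0.0164), were called higher and A2m (-1.27, edgeR adjusted p = 0.047) lower. Over all genes tested, 4.58% were called higher and 548 of 17954 lower. Il1b had 3.49, 5.86 and 3.04 CPM in VAS + H2O, 7.39, 14.4 and 193 in IMQ + H2O, and 119, 11.8 and 39.5 in IMQ + XYF. It was highest in IMQ + H2O replicate 3, and its difference in IMQ + H2O was not a call (log2 fold change 4.11, edgeR adjusted p = 0.0591), but became one in DESeq2, with all 9 libraries in 1 fit and without IMQ + H2O replicate 1. The call of Il1b in IMQ + XYF was lost without VAS + H2O replicate 1 or 3, with all 9 libraries in 1 fit, with the replicate number as a block and under glmTreat, leaving 1 or 2 pathway genes called. That of A2m was lost under the same 3 fits, without the low-count filter, without VAS + H2O replicate 1 or 2 and without IMQ + XYF replicate 2 or 3. Dsc1 (0.33), the desmosomal cadherin gene Dsg1a (-0.48) and Flg (-0.66) passed the adjusted p alone.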

How the data were processed

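RNA sequencing counts of epidermal ear sheets were analysed in 9 libraries, 3 per group, grouped by their labels. The members and gene lists were chosen with earlier results of these data known. Per the labels, strand-specific TruSeq libraries were made, and the submitters' processing notes name FastQC, STAR 2.5, Cuffnorm, DESeq 1.22.1 and GRCm38. The paper's methods name STAR, StringTie and DESeq2, and a TruSeq RNA kit without stating a strand. The authors deposited whole-number counts per gene without normalization, and the counting tool is not given in the sources used here.

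Counts were normalized by TMM (factors 0.956 to 1.06) in edgeR 4.0.16 (R 4.3.3). The 6 libraries of a comparison were fitted alone, after filterByExpr, with the quasi-likelihood test, with Benjamini-Hochberg adjustment over all genes tested. Standard errors and 95% intervals came from the test statistic. Calls needed an adjusted p of 0.05 or less and a log2 fold change of 1 or more in size. An exact permutation test of 3 against 3 libraries cannot give a p under 0.1. CPM values used TMM factors from 18492 genes kept by the filter over 9 libraries. Log2 CPM had a prior count of 2. Total counts were 30298275 to 64771160 per library, and Klk14 and Klk12, with at most 108 and 93 counts in a library, carry the largest counting error among the members.

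Named were all members, pathway genes by count with values for those called and for Spink5, St14 and Prss8, and the 5 genes most correlated with the mean of the members. St14, Spint1, Dsc1, Dsg1a and Flg are also given as genes that passed the adjusted p alone, and 2310002F09Rik as an overlapping gene, chosen after their values were seen. Gene positions and exon lengths were from GENCODE vM21, and promoter sequences from RefSeq on GRCm38.p6. Scripts were tested on simulated counts. Alternatives were RLE size factors, DESeq2 1.42.0, dropping the filter, a minimum of 10 counts per library, a joint fit of the 9 libraries, a block on the replicate number, calls on the adjusted p alone, glmTreat at a log2 fold change of 1, the longest transcript as length, and each library left out in turn.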

Additional observations from a re-analysis of the deposited data

How the results depend on the processing

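The count of kallikreins called in IMQ + H2O against VAS + H2O (5) became 8 on the adjusted p alone and 1 under glmTreat at a log2 fold change of 1, and was 3 to 5 when libraries were left out. In IMQ + XYF against VAS + H2O (4) it became 8 and 2, and was 4 to 4. For pathway genes, the count in IMQ + H2O against VAS + H2O (2) became 5 and 1, and was 1 to 3. In IMQ + XYF against VAS + H2O (3) it became 6 and 1, was 1 with all 9 libraries in 1 fit, and was 1 to 3 when libraries were left out. Between IMQ + XYF and IMQ + H2O no kallikrein and no pathway gene was called under any alternative run, while the count over all genes was 5 in edgeR, 129 in DESeq2, 1 with all 9 libraries in 1 fit, 0 under glmTreat and 0 to 5 when libraries were left out. Over all genes, the adjusted p alone gave 3986 calls and glmTreat 65 in place of 1383 in IMQ + H2O against VAS + H2O, and 5152 and 162 in place of 1371 in IMQ + XYF against VAS + H2O. Leaving out libraries gave 711 to 1314 and 996 to 1350.

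Same-numbered libraries of different groups had correlations of deviations from -0.133 to 0.105, so the numbers were not taken to pair the libraries. With the replicate number as a block, 4, 0 and 4 kallikreins were called in the 3 comparisons, with Klk10 lost in the first (log2 fold change 1.57, edgeR adjusted p = 0.106), and 2, 0 and 1 pathway genes. Over all genes the block gave 1100, 0 and 1113 calls. It turned the log2 fold change of Klk14 between IMQ + XYF and IMQ + H2O to 0.0596.

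Leaving out 1 library turned the sign of 5 members between IMQ + XYF and IMQ + H2O, none of them called, and the ranges were -0.16 to 0.14 for Klk6, -0.22 to 0.65 for Klk10, -0.42 to 0.16 for Klk12, -0.57 to 0.00887 for Klk13 and -0.72 to 0.70 for Klk14. For Klk5 in IMQ + XYF against VAS + H2O the range was -0.0150 to 0.19. The order of the levels per length was the same for 10 of 10 members with the longest transcript in place of merged exons. A minimum of 10 counts per library removed Klk14 from the test against VAS + H2O. The causes were not tested. Klk14 had 0 to 5 counts in the control libraries and Klk12 had 27 to 93 counts per library, so counting error is larger for these 2 than for the other members.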

Other observations

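Genes of the upper epidermis, the cells that make kallikreins, did not move as a block in IMQ + H2O against VAS + H2O. Of 8 granular layer markers, Tgm1 and Tgm3, transglutaminases that cross-link the cornified envelope, and Ivl, which encodes the envelope protein involucrin, were called higher, with log2 fold changes of 1.08, 1.17 and 1.10 (edgeR adjusted p = 0.0035, 0.0184 and 0.00743). Lor, Flg, Flg2, Hrnr and Casp14 were not called, at -0.39, 0.16, -0.88, 0.64 and 0.83. Of the 4 keratinocyte keratins, Krt1 was called higher (log2 fold change 1.45, edgeR adjusted p = 0.0089). Over all genes tested, 3.64% were called higher in this comparison. In IMQ + XYF against VAS + H2O, Krt1 and Tgm3 were called higher, at 1.33 and 1.04 (edgeR adjusted p = 0.00172 and 0.00756), against 4.58% of all genes.

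Markers of other cells gave the following summed CPM. Langerhans cell markers (5 genes) had 571 to 700.1 in VAS + H2O, 544 to 696 in IMQ + H2O and 542 to 589 in IMQ + XYF. Melanocyte markers (5 genes) had 17.2 to 39.2, 13.995 to 25.7 and 19.8 to 28.8. Sebaceous gland markers (5 genes) had 97.4 to 193, 129 to 177 and 131 to 161, and hair follicle sheath markers (6 genes) 39.3 to 58.2, 26.5 to 46.9 and 23.3 to 46.2. Skeletal muscle markers (5 genes) had 6.22 to 122 in VAS + H2O, with replicate 2 highest, 3.21 to 6.64 in IMQ + H2O and 5.04 to 36.5 in IMQ + XYF. Of 7 dermal fibroblast markers, 2 were called lower in IMQ + H2O against VAS + H2O, as were 727 of all 18009 genes tested. Of 7 cartilage markers tested, 1 was called higher in IMQ + XYF against IMQ + H2O, as were 5 of all 17793 genes tested. In IMQ + XYF against VAS + H2O, 2 of the 7 were called lower, as were 548 of all 17954 genes tested.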
